A study of Homo sapiens with 9 samples.

Results

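Noncoding snoRNA host genes are transcribed and spliced like messenger RNAs, but the part that is kept for use is often in an intron. Small nucleolar RNAs (snoRNAs) are cut out of the removed introns and guide chemical changes on ribosomal and spliceosomal RNA. Box C/D snoRNAs guide ribose methylation, box H/ACA snoRNAs guide pseudouridylation, and small Cajal body RNAs (scaRNAs) act on spliceosomal RNAs. The spliced exons that remain usually encode no long protein. Several of them are loaded on ribosomes and destroyed by nonsense-mediated decay (NMD), and several begin with the pyrimidine run of TOP mRNAs, whose translation depends on growth signals. The spliced RNA of such a gene can therefore change with transcription, with translation or with decay, and a gene count does not separate these.

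The host genes were taken by name: every gene called SNHG plus a number, and GAS5, ZFAS1, EPB41L4A-AS1, MIR17HG and DANCR. This gave 30 of the 58735 genes in the deposited table. Of these, 25 passed the filter on low counts and were tested among 17023 genes. The choice used names and no measured value, but it was made with earlier results of these data known. In the deposited table, 25 of the 30 genes had at least 1 named snoRNA or scaRNA row within their bounds on the same strand. MIR17HG holds 6 microRNAs and no snoRNA. For GAS5, SNHG27 and both genes named SNHG28 no small RNA row was analysed here, and 1 of the SNHG28 rows is annotated as protein-coding.

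RNA was sequenced from OVCAR3, an established human high-grade ovarian carcinoma line, after 72 h in culture. There were 3 groups of 3 replicates. The control cells, whose genotype is labelled WT, carried a scramble short hairpin RNA. The knockdown cells carried one of 2 hairpins against GPX3, which encodes a secreted glutathione peroxidase; these are shRNA#76 and shRNA#78, called sh76 and sh78 here. All groups therefore carried a hairpin, and no cells without one were analysed here. The series asks what GPX3 does in ovarian cancer cells. Nothing in the labels says whether replicates were separate transductions, so p-values measure the spread between these samples, which may be technical.

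Libraries held 14652965 to 21327562 counts, and the host genes took 0.091% to 0.102% of them. GPX3 mRNA itself averaged 133 ± 34.8 CPM in scramble cells (SD, n = 3), 55.8 ± 0.851 in sh76 cells and 30.6 ± 4.01 in sh78 cells. CPM here are counts scaled to a common library size and composition. That is −1.25 (sh76) and −2.12 (sh78) on the log2 scale, with adjusted p = 0.00264 and 0.000125 by edgeR's quasi-likelihood test. All 8 ovarian carcinoma markers were detected, among them PAX8 at 732 to 1005 CPM and KRT8 at 3536 to 5843 CPM. By edgeR without a block, 0 of the 8 were higher and 1 lower with sh76, and 0 higher and 3 lower with sh78. Between hairpins, 1 was higher with sh78 and 0 lower. Over all tested genes 3.58%, 4.41% and 3.7% were called. With replicate number as a block the counts were 2 higher and 5 lower, 1 and 3, and 1 and 3. All tested genes then gave 20.4%, 19.9% and 18.3%. The part of these markers in the results below was not tested. Of 8 markers of other cells, CD3E, CD68 and DCN reached at most 0.532 CPM, PTPRC 1.29 CPM and PECAM1 0.578 CPM, while COL1A2 stood at 1.09 to 6.87 CPM, VWF at 5.36 to 9.8 CPM and COL1A1 at 25.5 to 44.5 CPM. None of the 4 tested was called by edgeR without a block (0 at an unadjusted p under 0.05, and 0 by DESeq2). With replicate number as a block, COL1A1 was higher with sh76 and sh78 (log2 fold change 0.23 and 0.27, adjusted p = 0.0137 and 0.00496), and its part in the results below was not tested.

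Small RNAs encoded by 3 of the hosts that differed are shown first, because they are what sets one host apart from another. The sequences are the GENCODE 29 transcripts on GRCh38, 5′ to 3′, written as DNA. Capitals mark the boxes that define each class: TGATGA (box C) and the last CTGA (box D) in box C/D RNAs, and the last ACA in SCARNA13. SNORD60 lies in SNHG19 (chr16:2155023-2155105, minus strand), SCARNA13 in SNHG10 (chr14:95533355-95533629, minus strand) and SNORD50B in SNHG5 (chr6:85677589-85677658, minus strand).
SNORD60: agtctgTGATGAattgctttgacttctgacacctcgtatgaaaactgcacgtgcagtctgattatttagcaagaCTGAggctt
SCARNA13: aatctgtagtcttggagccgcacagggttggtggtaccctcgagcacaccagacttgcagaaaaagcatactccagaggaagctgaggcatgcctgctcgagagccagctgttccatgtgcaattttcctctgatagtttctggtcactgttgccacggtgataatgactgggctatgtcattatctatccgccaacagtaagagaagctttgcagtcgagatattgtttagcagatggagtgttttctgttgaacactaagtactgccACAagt
SNORD50B: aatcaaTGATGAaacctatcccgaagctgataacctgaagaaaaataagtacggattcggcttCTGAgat

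These small RNAs have no poly-A tail, and the libraries were made with poly-T beads. The 129 snoRNA and scaRNA rows inside the hosts had 846 counts in all over the 9 libraries, and 83 of those rows lie in SNHG14. A set of 39 rows shares bases with an annotated exon of its host, and 0 of them had a count. Of the 90 rows clear of host exons, 33 had at least 1 count. SNORA74A had 10 counts in total, SCARNA13 had 48, and SNORD60 and SNORD50B had 0. The values below are those of the host gene rows, and the level of the small RNAs was not measured at a usable depth. A gene row can also take reads from RNA that keeps an intron: 19 of the 29 annotated GAS5 transcripts and 13 of the 25 of SNHG1 are of that kind, against 0 for SNHG4, SNHG19 and SNHG10.

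Next come the bases at the annotated start of 5 hosts, shown because a run of C and T beginning with C at the first base is the mark of a TOP RNA. Each window runs from 10 bases before the RefSeq start to 20 bases from it (GRCh38.p14, transcript strand). Capitals mark a run of at least 5 C or T that begins with C at the start base.
SNHG4 (chr5:139274091-139274120, plus strand): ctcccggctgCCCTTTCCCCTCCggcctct
SNHG19 (chr16:2155339-2155368, minus strand): ccgcccctgtCTTTTCggggtcgagtccga
SNHG5 (chr6:85678714-85678743, minus strand): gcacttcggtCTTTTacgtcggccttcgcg
SNHG10 (chr14:95534853-95534882, minus strand): cttatgccggagcctcatcctactgcctta
SNHG16 (chr17:76557754-76557783, plus strand): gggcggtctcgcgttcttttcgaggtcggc

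Such a run stood at the start of SNHG4, SNHG19, SNHG5, SNHG12, SNHG18 and ZFAS1, which is 6 of 25 host genes with a RefSeq window (24.0%). Among all 27305 genes with a window, 1104 (4.04%) had one. This is a match of letters at 1 annotated base and does not show where transcription began in these cells. The RefSeq start lay 1 base from the GENCODE start for SNHG4, 0 for SNHG19 and 15 for SNHG5, but 1259 for SNHG12 and 464 for ZFAS1. For GAS5, a classic TOP host, it lay 163 bases away, and no run was found at it.

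Levels differed widely between hosts. On the FPKM scale, which divides by gene length, the tested hosts ran from 102 for SNHG19 to 0.173 for SNHG26 as scramble means, with a median of 6.17 against 3.64 over all tested genes. SNHG19, host of SNORD60, had the highest FPKM in every library of every group, and its annotated exons add up to only 342 bases. After it came SNHG8 (48.6 FPKM), SNHG6 (44 FPKM) and GAS5 (41.7 FPKM), where each overlapped the next of these over the 3 scramble libraries. SNHG5 (32.7 FPKM) and DANCR (31.8 FPKM) also overlapped. SNHG16 (24.5 FPKM) and SNHG7 (20.7 FPKM) were each clear of the next host below. By counts that ignore length, GAS5 and SNHG16 led instead.

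**Figure D1:**
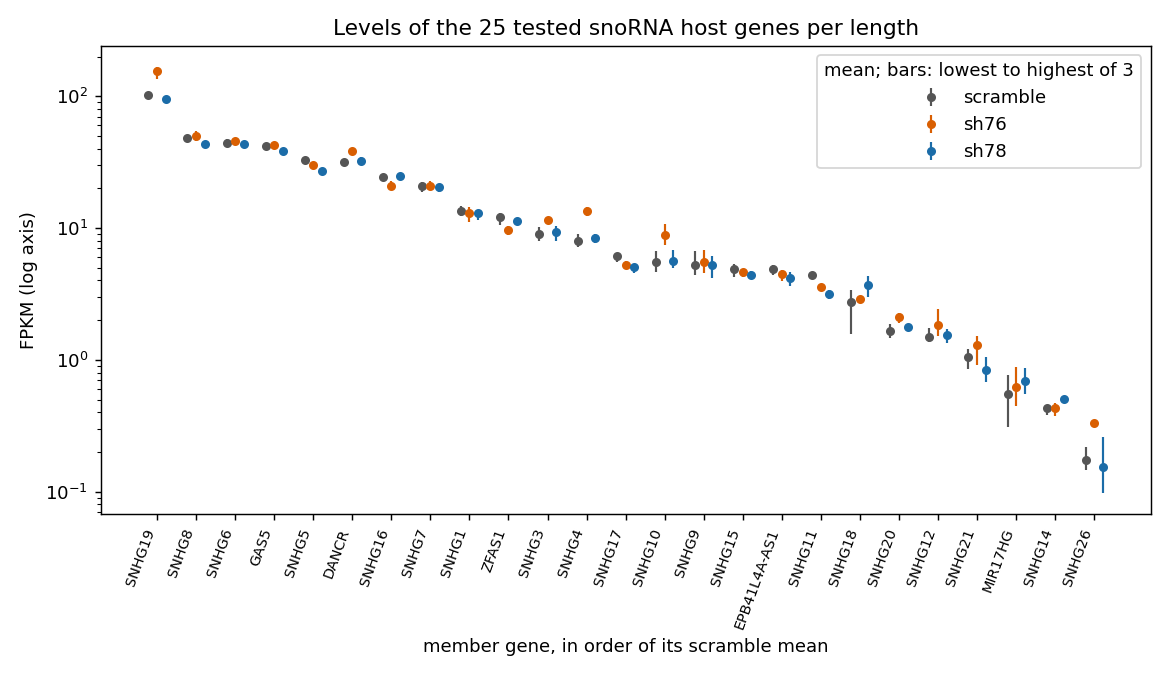
FPKM (log axis) of the 25 tested host genes in scramble, sh76 and sh78, in order of the scramble mean; points are means of 3 replicates and bars run from the lowest to the highest replicate. SNHG19 is highest at 102 FPKM with scramble and SNHG26 lowest at 0.173 FPKM.

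With sh76, 3 host genes rose against scramble: SNHG4, SNHG19 and SNHG10, by 1.68-fold, 1.53-fold and 1.61-fold. None fell at an adjusted p under 0.05 by edgeR; 4 were lower at an unadjusted p under 0.05 and DESeq2 called 0 lower. The 3 of 25 called hosts (12%) stand against 3.58% of all tested genes called in this comparison (1.43% higher and 2.16% lower). The median log2 fold change of the 25 was 0.07, against 0.01 over all genes tested. Lower counts in such bulk samples cannot tell fewer cells of a kind from less RNA per cell.

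SNHG4, the host of SNORA74A and SNORA74D (chr5:139274102-139284899), had 34.8, 40.7 and 32.2 CPM in scramble replicates 1 to 3. It had 55.7, 65.5 and 59.4 CPM with sh76, and 34.5, 40.7 and 38 CPM with sh78. All 3 sh76 libraries were above all 6 others, which overlapped. The log2 fold change for sh76 was 0.75 ± 0.10 (SE; edgeR, adjusted p = 0.00117), and the same-numbered pairs gave 0.68, 0.69 and 0.88. For sh78 it was 0.07 ± 0.10 (adjusted p = 0.797). Leaving out each library in turn kept the sh76 value between 0.67 and 0.84.

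SNHG4 overlaps other genes, and without strand their reads cannot all be told apart. It shares 2.6% of its exon bases with SIL1 on the opposite strand, which sh76 moved by −0.09 in log2 (edgeR, adjusted p = 0.707). It shares 14.0% with a MATR3 row on the same strand that had 33 counts in all libraries together, against 7123 for SNHG4.

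SNHG19, whose intron holds SNORD60 (chr16:2154797-2155358), had 34.2, 37.3 and 34.1 CPM with scramble. With sh76 it had 57.3, 46.9 and 57.2 CPM, and with sh78 32.6, 32.2 and 33.3 CPM. The sh76 libraries were the 3 highest, and each sh78 library was below each scramble library by a small margin. The log2 fold change for sh76 was 0.61 ± 0.09 (edgeR, adjusted p = 0.00219), with 0.74, 0.33 and 0.75 in the same-numbered pairs. For sh78 it was −0.11 ± 0.09 (adjusted p = 0.629). SNHG19 shares no exon base with another gene. Of its 2 near neighbours on the opposite strand, TRAF7 had a log2 fold change of −0.10 with sh76 and RAB26 of 0.37 (edgeR, adjusted p = 0.492 for RAB26, and 0.0056 with replicate number as a block).

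SNHG10, which holds SCARNA13 (chr14:95532297-95534872), had 13, 9.14 and 10.3 CPM with scramble. It had 21.2, 16.6 and 14.5 CPM with sh76 and 9.95, 13.3 and 9.73 CPM with sh78. The sh76 libraries were again the 3 highest, but they spread widely. The log2 fold change was 0.68 ± 0.18 (edgeR, adjusted p = 0.0477), and the call was lost when any of 6 of the 9 libraries was left out: scramble 2 or 3, sh76 1 or 2, or sh78 1 or 3 (adjusted p from 0.0242 to 0.183 over all 9). Without sh76 replicate 1 the value was 0.52. The call was also lost when only the 2 groups were fitted and in limma on FPKM with either pseudocount. SNHG10 shares 20.1% of its exon bases with GLRX5 on the opposite strand, which had a log2 fold change of −0.08 (adjusted p = 0.586).

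**Figure D2:**
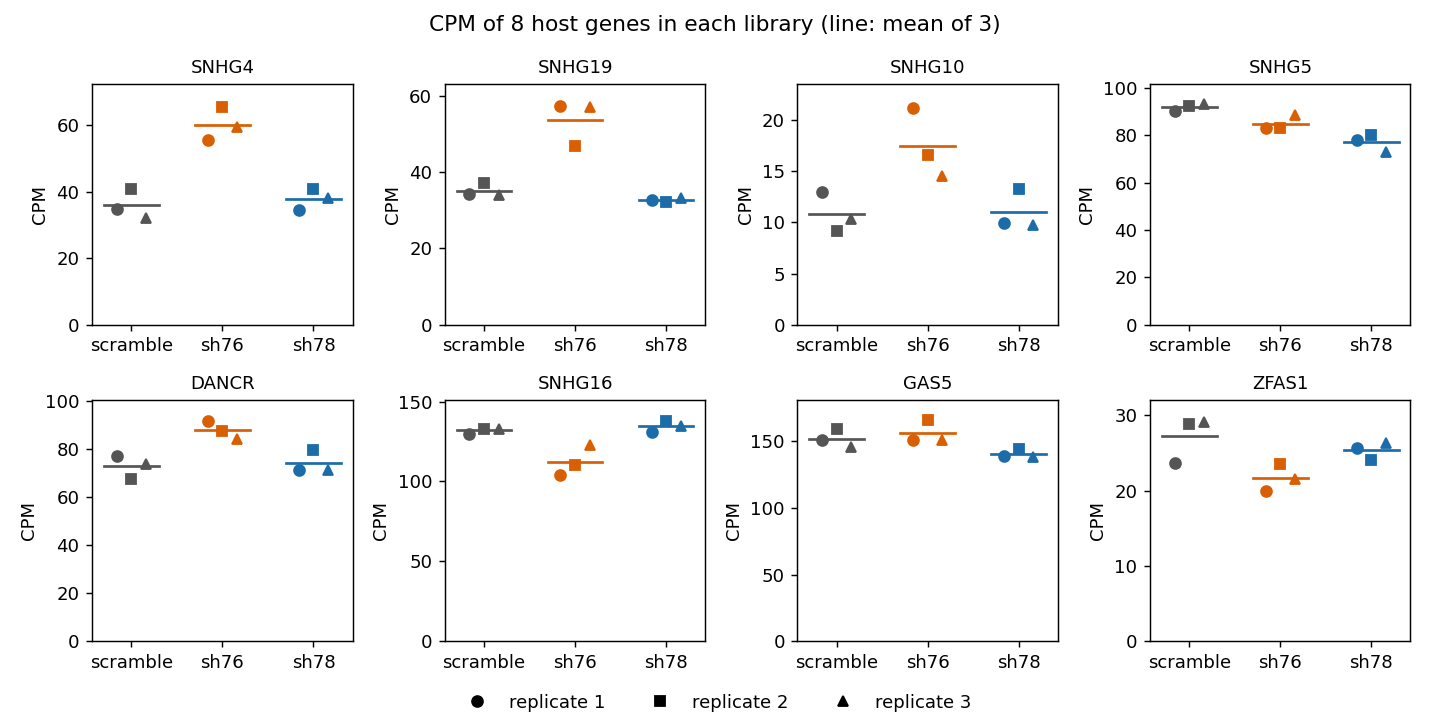
CPM of 8 host genes in each of the 9 libraries, by group, with marker shape for replicate number and a line at the mean of 3; every axis starts at 0. SNHG4, SNHG19 and SNHG10 are highest in the 3 sh76 libraries, while SNHG16 and ZFAS1 are lowest there.

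Over all tested genes, the replicate numbers in the labels marked libraries that deviated together. The fit with replicate number as a block is therefore given wherever it changes a call. Over the tested hosts alone the pairing was less clear. Deviations from the group means there correlated at r of −0.17 to 0.67 in same-numbered pairs of libraries. In differently numbered pairs r was −0.54 to 0.54. With the block, 9 host genes were called for sh76, 6 higher and 3 lower, which is 36% of the 25; over all genes tested the share was then 20.4% (9.63% higher and 10.7% lower). The added higher genes were DANCR, SNHG3 and SNHG20, and the lower ones SNHG16, ZFAS1 and SNHG17. These changes were smaller than those of SNHG4, SNHG19 and SNHG10.

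DANCR, a long noncoding RNA that holds SNORA26, had 77.3, 67.8 and 73.7 CPM with scramble, 91.8, 87.5 and 84.3 CPM with sh76, and 71.5, 79.5 and 71.3 CPM with sh78. All 3 sh76 libraries were above the other 6. With sh76 the log2 value was 0.27 ± 0.07 (edgeR, adjusted p = 0.0629, and 0.00031 with the block). DESeq2 also called it. For sh78 the value was 0.02 (adjusted p = 0.922).

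SNHG3, the host of SNORA73A and SNORA73B, had 33, 41.9 and 35.8 CPM with scramble, 45.8, 49 and 47.5 CPM with sh76 and 32.9, 42.1 and 40.9 CPM with sh78. Against scramble sh76 gave a log2 difference of 0.36 ± 0.11 (edgeR, adjusted p = 0.0835, and 5.27e-05 with the block). It shares 5.9% of its exon bases with RCC1 on the same strand. SNHG20, which holds SCARNA16, had 11.4, 10.1 and 8.94 CPM with scramble, 13.7, 13.9 and 11.6 CPM with sh76 and 11.1, 10.9 and 10.3 CPM with sh78. Its log2 fold change was 0.36 ± 0.13 (adjusted p = 0.166, and 0.0157 with the block). Both had all sh76 libraries above all scramble libraries. SEC14L1, which shares 7.6% of SNHG20's exon bases, was lower (log2 fold change −0.25, edgeR, adjusted p = 0.0378).

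On the lower side, SNHG16, which holds SNORD1A, SNORD1B and SNORD1C, had 130, 133 and 133 CPM with scramble, 104, 110 and 123 CPM with sh76 and 131, 138 and 135 CPM with sh78. The 3 sh76 libraries were the lowest. For sh76 the log2 difference was −0.22 ± 0.07 (edgeR, adjusted p = 0.0872, and 0.000431 with the block). SNHG16 shares 30.6% of its exon bases with AC015802.6 on the opposite strand, which had 328 counts in total against 19716 for SNHG16.

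ZFAS1, transcribed from the start region of ZNFX1 and host of the SNORD12 group, had 23.7, 28.9 and 29.2 CPM with scramble, 20, 23.5 and 21.6 CPM with sh76 and 25.7, 24.1 and 26.3 CPM with sh78. Every sh76 library was below every scramble library. In log2 terms the sh76 difference was −0.33 ± 0.11 (edgeR, adjusted p = 0.113, and 0.00298 with the block). ZFAS1 shares 11.1% of its exon bases with ZNFX1 on the opposite strand.

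SNHG17, the host of 4 SNORA71 genes, had 23.3, 27.4 and 27.1 CPM with scramble, 20.8, 23.8 and 21.7 CPM with sh76 and 19.2, 21.8 and 22.4 CPM with sh78. The scramble and sh76 ranges overlapped, yet each same-numbered pair was lower, by −0.17, −0.21 and −0.32 on the log2 scale. With sh76 the fitted log2 value was −0.23 ± 0.11 (edgeR, adjusted p = 0.276, and 0.0351 with the block).

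With sh78, which left less GPX3 mRNA than sh76, 1 host gene fell against scramble: SNHG5. None rose at an adjusted p under 0.05 by edgeR; 0 were higher at an unadjusted p under 0.05 and DESeq2 called 0 higher. The 1 of 25 (4%) stands beside 4.41% of all tested genes (1.85% higher and 2.56% lower), a share near the background. The median log2 fold change was −0.02, against 0.01 over all genes tested. With the replicate block, 3 hosts were lower (SNHG5, SNHG11 and SNHG17) and 0 higher, which is 12% beside 19.9% of all genes (9.78% higher and 10.1% lower).

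SNHG5, the host of SNORD50B, had 90.4, 92.6 and 93.3 CPM with scramble, 83, 83.1 and 88.6 CPM with sh76, and 77.9, 80.3 and 72.9 CPM with sh78. The 3 groups did not overlap, with scramble highest and sh78 lowest. The log2 fold change for sh78 was −0.26 ± 0.07 (edgeR, adjusted p = 0.039), and for sh76 −0.12 ± 0.06 (adjusted p = 0.38). The sh78 call was lost when any of 7 of the 9 libraries was left out, all but sh76 replicates 1 and 3 (adjusted p from 0.0433 to 0.145 over all 9), and when only the 2 groups were fitted.

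SNHG11, which holds SNORA60 and SNORA71E, had 11.8, 12.1 and 13.1 CPM with scramble, 9.79, 10.4 and 10.2 CPM with sh76 and 8.28, 9.13 and 9.6 CPM with sh78. Again the groups did not overlap, in the same order as for SNHG5. With sh78 the log2 value was −0.46 ± 0.12 (edgeR, adjusted p = 0.053, and 0.00332 with the block); for sh76 it was −0.29 ± 0.12 (adjusted p = 0.233, and 0.0631 with the block). For SNHG17 the sh78 value was −0.30 ± 0.11 (adjusted p = 0.152, and 0.0081 with the block).

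**Figure D3:**
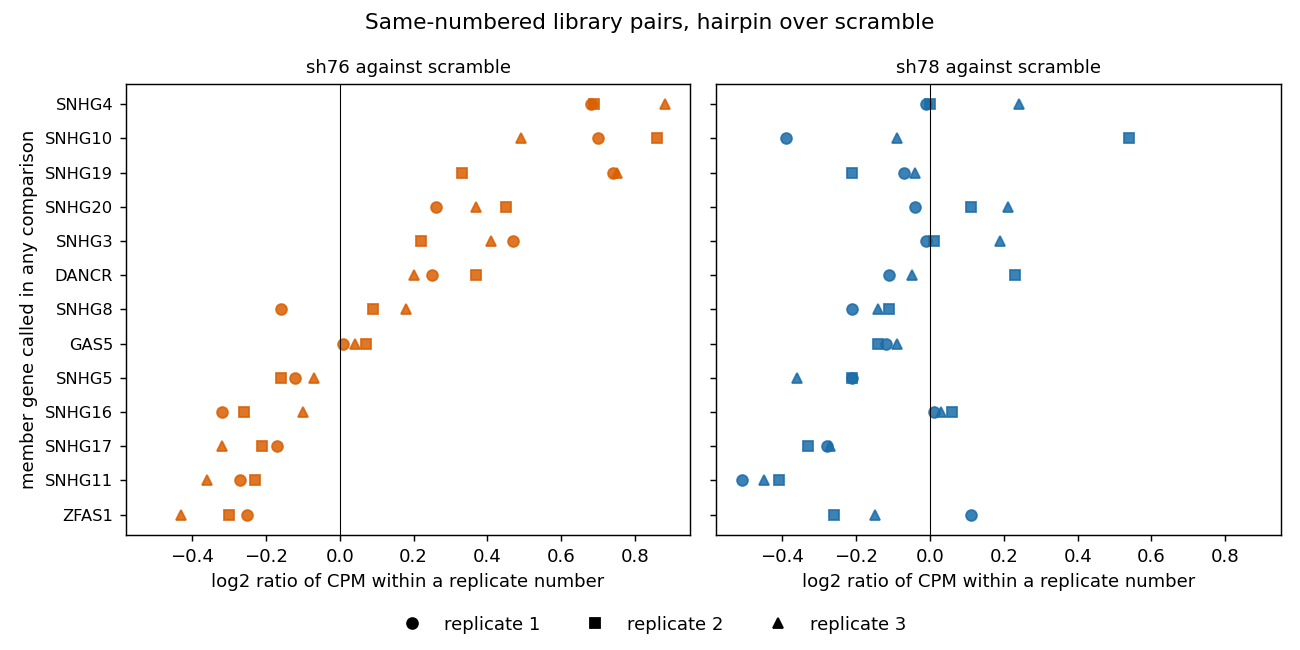
log2 ratio of CPM, hairpin over scramble, within each replicate number for the host genes called in any comparison by either fit; marker shape gives the replicate number. For SNHG4 the sh76 pairs lie at 0.68, 0.69 and 0.88, and for SNHG11 the sh78 pairs lie between −0.51 and −0.41.

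The 2 hairpins were then compared with each other. SNHG19 and SNHG4 were lower in sh78 cells, with log2 values of −0.72 ± 0.09 and −0.68 ± 0.10 (edgeR, adjusted p = 0.000654 and 0.0021). SNHG16 was higher with sh78, by 0.26 ± 0.07 (adjusted p = 0.0496); this call was lost when any of 7 of the 9 libraries was left out, all but scramble replicate 1 and sh76 replicate 3 (0.0262 to 0.173 over all 9). The SNHG16 call was also lost when only the 2 groups were fitted and in limma on FPKM with either pseudocount. These 3 of 25 (12%) stand beside 3.7% of all tested genes (1.97% higher and 1.72% lower). This comparison uses the same sh76 libraries as sh76 against scramble, so the 2 sets of values are not independent.

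With the replicate block, 9 hosts differed between hairpins, 2 higher and 7 lower with sh78 (36%, beside 18.3% of all genes, 9.69% higher and 8.62% lower). The ones added were ZFAS1 on the higher side and SNHG10, DANCR, SNHG3, SNHG8 and GAS5 on the lower side. SNHG10 differed by −0.67 ± 0.18 in log2 (edgeR, adjusted p = 0.0531, and 0.000293 with the block). Of the 25 tested hosts, 20 had a negative value and 5 a positive one, with a median of −0.14 against 0 over all genes. In 11 hosts every sh78 library was below every sh76 library, and in 3 every one was above; over all genes the shares were 10.9% and 10.9%, or 21.8% in either direction.

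The counts that do not overlap were 7 higher and 4 lower for sh76 against scramble, where all genes gave 10.8% and 11.7%, or 22.5% in either direction. For sh78 against scramble they were 1 higher and 6 lower, where all genes gave 10.2% and 11.2%, or 21.5% in either direction. The plot of fold changes shows both directions within each comparison.

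**Figure D4:**
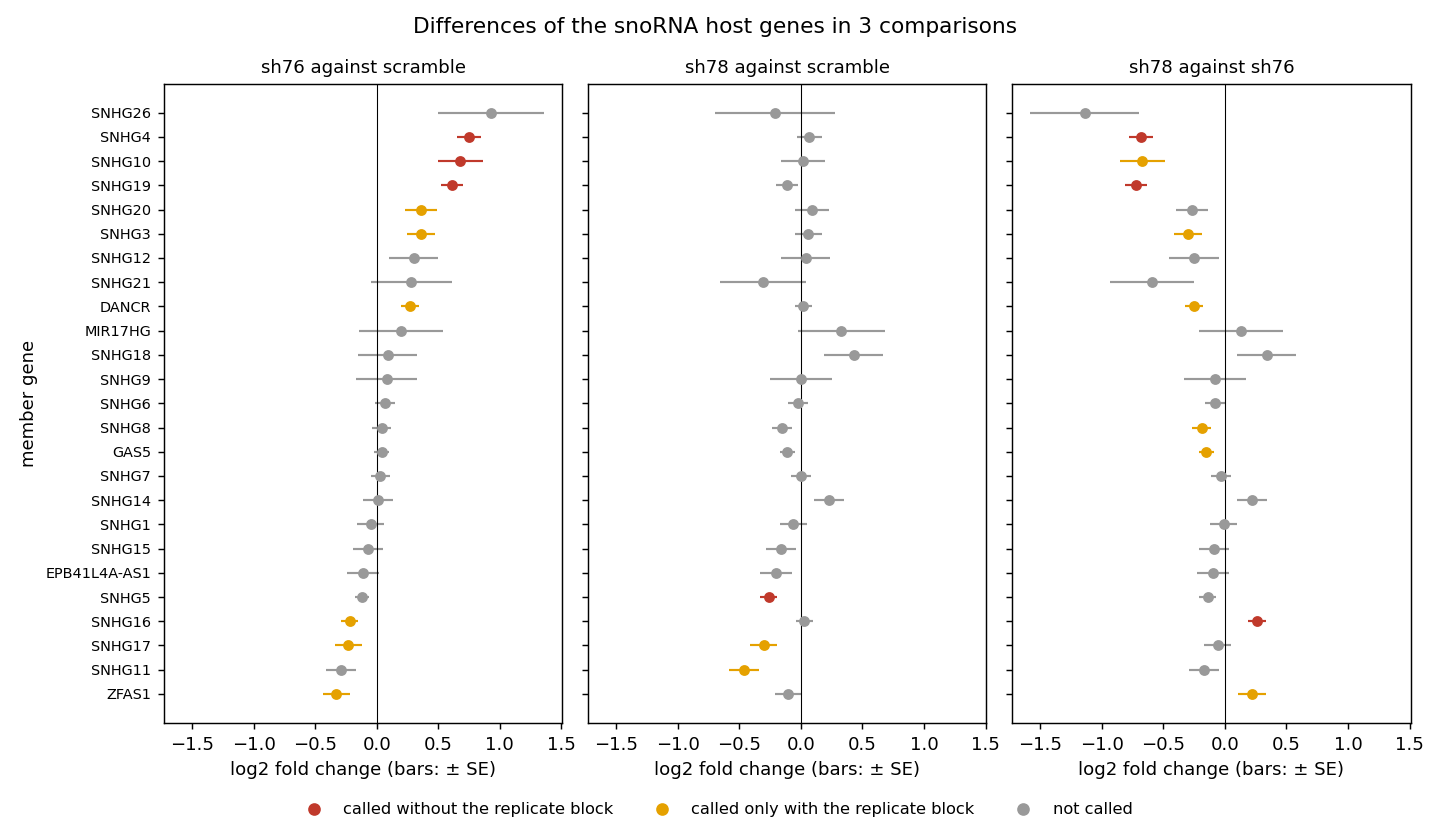
log2 fold change ± SE (edgeR) of the 25 tested host genes in 3 comparisons, in the order of sh76 against scramble; color marks calls without the replicate block, calls made only with it, and no call. SNHG4, SNHG19 and SNHG10 lie between 0.61 and 0.75 for sh76 and between −0.11 and 0.07 for sh78.

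The summed CPM of the hosts was 948 to 969 with scramble, 986 to 1016 with sh76 and 905 to 936 with sh78, and these ranges did not overlap. SNHG4, SNHG19 and SNHG10 together made 76.6 to 87 CPM, 129 to 134 CPM and 77.1 to 86.2 CPM of it. Without these 3, which were picked by their change, the sums were 868 to 882, 852 to 887 and 828 to 850 CPM, so that scramble and sh76 overlapped.

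Several of the most abundant hosts were not called against scramble in either fit. GAS5, a growth-arrest transcript whose spliced RNA is a known NMD substrate, had 151, 159 and 146 CPM with scramble, 151, 166 and 151 CPM with sh76 and 139, 144 and 138 CPM with sh78. Against scramble it differed by 0.04 ± 0.06 (sh76) and −0.11 ± 0.06 (sh78) in log2 (edgeR, adjusted p = 0.81 and 0.381). Its sh78 libraries were the 3 lowest. Between hairpins the value was −0.15 ± 0.06 (adjusted p = 0.227, and 0.0109 with the block).

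SNHG8, which holds SNORA24, had 47.5, 43 and 44.5 CPM with scramble, 42.4, 45.8 and 50.5 CPM with sh76 and 41.2, 39.9 and 40.5 CPM with sh78. Its sh78 libraries were the lowest, with a log2 value of −0.15 ± 0.08 against scramble (edgeR, adjusted p = 0.39). SNHG6, which holds SNORD87, had 52.5, 53.4 and 59.4 CPM with scramble, 56.9, 55.5 and 60.7 CPM with sh76 and 51.7, 55.8 and 56.2 CPM with sh78, and its groups overlapped. SNHG7, the host of the SNORA17 genes, had 97.2, 82.4 and 91.3 CPM with scramble, 88.6, 87.5 and 99.7 CPM with sh76 and 94.6, 81.8 and 93.6 CPM with sh78. Replicate 2 was the lowest of its SNHG7 group in all 3 groups, and the groups overlapped.

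EPB41L4A-AS1, which holds SNORA13, had 17.7, 14.8 and 16.6 CPM with scramble, 16.1, 13.3 and 16.1 CPM with sh76 and 15.6, 12.2 and 14.7 CPM with sh78. Its groups overlapped, and sh76 and sh78 gave log2 values of −0.11 ± 0.13 and −0.20 ± 0.13 (edgeR, adjusted p = 0.736 and 0.479). It shares 49.6% of its exon bases with EPB41L4A on the opposite strand. In sh78 cells EPB41L4A stood above scramble by 0.38 in log2 (adjusted p = 0.027 by edgeR). In sh76 cells EPB41L4A stood above scramble by 0.29 (adjusted p = 0.0971, and 0.00166 with the block). MIR17HG, the precursor of an oncogenic microRNA cluster, had 2.7, 1.99 and 1.09 CPM with scramble, 1.91, 3.1 and 1.57 CPM with sh76 and 1.94, 3.02 and 2.33 CPM with sh78. Its groups overlapped throughout.

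The remaining tested hosts, SNHG1, SNHG9, SNHG12, SNHG14, SNHG15, SNHG18, SNHG21 and SNHG26, were not called in any comparison by either fit. SNHG26, which holds SNORD93, had the largest fitted values, 0.93 ± 0.43 for sh76 and −1.14 ± 0.44 for sh78 against sh76 (edgeR, adjusted p = 0.278 and 0.201), from 93 counts in all. Below the filter, SNHG25 had 38 counts in total, 1 SNHG28 row had 37 and SNHG22 had 21, while SNHG27 and the other SNHG28 row had 0 in every library.

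The machinery around the hosts was read from lists chosen with earlier results of these data known. Among 21 NMD factors, edgeR called 0 in either direction in all 3 comparisons. At an unadjusted p under 0.05 there was 1 higher and 1 lower for sh76, 1 and 0 for sh78, and 2 and 0 between hairpins; DESeq2 called 1, higher with sh78 than sh76. With the block, 1 of the 21 was higher and 1 lower with sh76, beside 9.63% and 10.7% of all tested genes. The lower one was UPF3A, which links exon junctions to decay (log2 fold change −0.20, edgeR, adjusted p = 0.0451). For sh78, 0 were then higher and 1 lower, beside 9.78% and 10.1% of all tested genes. That one was RBM8A, an exon junction protein (log2 fold change −0.15, adjusted p = 0.031). Between hairpins, 3 of the 21 NMD factors were then higher with sh78 and 0 lower, beside 9.69% and 8.62% of all tested genes.

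Of 11 protein-coding NMD substrates, 1 was higher and 3 lower with sh76, and 0 were higher and 2 lower with sh78. Over all tested genes the shares were 1.43% higher and 2.16% lower with sh76, and 1.85% and 2.56% with sh78. The list median was −0.20 and −0.31, against 0.01 over all genes. ATF4, the stress-response transcription factor, fell by 0.27 and 0.37 on the log2 scale (edgeR, adjusted p = 0.0161 and 0.00189). SLC7A11, the cystine importer, fell by 0.67 and 0.83 (adjusted p = 0.0177 and 0.00437). GABARAPL1, an autophagy protein, fell by 0.56 with sh76, and MAP3K14, a kinase of the NF-kappaB pathway, rose by 0.45 with sh76 (adjusted p = 0.0216 and 0.0475). Between hairpins, 0 of the 11 were higher and 1 lower with sh78, beside 1.97% and 1.72% of all tested genes. The lower one was MAP3K14 (log2 fold change −0.46, edgeR, adjusted p = 0.0438). Its value for sh78 against scramble was −0.01 (adjusted p = 0.988). ATF4 and SLC7A11 were lower with both hairpins. Like MAP3K14, SNHG4 and SNHG19 were higher with sh76, and lower with sh78 than with sh76 by the test between hairpins. Whether transcription or decay had a part in any of these changes was not tested. With the block, 1 was higher and 5 lower with sh76, 0 higher and 7 lower with sh78, and 1 higher and 2 lower for sh78 against sh76; over all genes 10.7%, 10.1% and 8.62% were lower in these comparisons.

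The proteins that package the small RNAs gave no call by edgeR without the block. Among 11 box C/D proteins, 0 were called in any comparison; at an unadjusted p under 0.05 there were 0 for sh76, and 1 higher and 1 lower in each of the other 2. Among 6 box H/ACA proteins there were 0 calls and 0 at an unadjusted p under 0.05. DESeq2 called 0 in both lists. With the block, NOP58, a core box C/D protein, was higher with sh76 (log2 fold change 0.13, edgeR, adjusted p = 0.0465) and lower with sh78 than with sh76 (−0.17, adjusted p = 0.00527). NOP56, its partner in the particle, was higher with sh78 (0.16, adjusted p = 0.0138), and RUVBL1, an assembly factor, was lower (−0.20, adjusted p = 0.00103). No box H/ACA protein was called with the block. FBL, the methyltransferase of box C/D particles, had a log2 fold change of −0.02 and 0.04, and DKC1, the pseudouridine synthase of box H/ACA particles, of −0.01 and 0.00.

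Protein-coding genes also host snoRNAs, mostly ribosomal protein and translation factor genes. Of 32 such genes, edgeR and DESeq2 called 0 in any comparison without the block, with medians of 0.02 and 0.06; unadjusted p under 0.05 gave 0 higher and 2 lower for sh76, and 3 higher and 1 lower for sh78 and between hairpins. With the block, 2 were higher and 2 lower with sh76, 7 higher and 1 lower with sh78, and 7 higher and 1 lower for sh78 against sh76. Over all tested genes the shares were then 9.63% higher and 10.7% lower, 9.78% and 10.1%, and 9.69% and 8.62%. Among 9 regulators of TOP mRNA translation, 1 was higher and 1 lower with each hairpin without the block. All tested genes gave 1.43% higher and 2.16% lower for sh76, and 1.85% and 2.56% for sh78. With the block, 2 were higher and 1 lower with sh76, and 2 higher and 2 lower with sh78. The shares of all genes with the block are those just given. Without the block, EIF4EBP2 rose with both hairpins (log2 fold change 0.40 and 0.48, edgeR, adjusted p = 0.00334 and 0.000632). EIF4EBP1 fell with both, by 0.39 and 0.32 (adjusted p = 0.0216 and 0.0487). Both encode inhibitors of cap-dependent translation, and LARP1, which binds TOP mRNAs, had values of −0.04 and −0.05. Between hairpins 0 of the 9 were called with or without the block, 0 had an unadjusted p under 0.05 without it, and DESeq2 called 0.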

How the data were processed

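Gene-level raw counts and FPKM values were deposited by the authors as separate tables. Per the submitters' processing notes, the tools named are HISAT2 2.0.5 and featureCounts 1.5.0-p3 and the build is hg38, with no roles or settings given. Per the labels' protocols, libraries were poly-T selected and non-directional. All 58735 identifiers matched GENCODE 29 by name, 58724 of them with the same start and end; 0 per-sample columns were left out. FPKM values deposited by the authors were used for levels between genes and in limma 3.58.1 as an alternative (pseudocounts 1 and 0.1).

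The tests used edgeR 4.0.16 under R 4.3.3 on the counts: filterByExpr (minimum count 10, minimum total 15), TMM, estimateDisp and robust quasi-likelihood F tests over all 9 samples in 3 groups, with Benjamini-Hochberg adjustment over 17023 genes and calls at 0.05. DESeq2 1.42.0 was an alternative. The common biological coefficient of variation was 10.4%. Replicates of a group differed by more than sampling noise (chi-square per degree of freedom 5.2 to 11.7), so none was counted as a duplicate.

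Over all tested genes, deviations from the group means correlated at r of 0.19 to 0.46 in the 9 same-numbered pairs of libraries. In the 18 differently numbered pairs r was −0.36 to 0.08. The replicate numbers in the labels were therefore read as pairing the samples, and a fit with the number as a block (4 residual degrees of freedom in place of 6) is printed where it changes a call.

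The members and lists were chosen with earlier results of these data known. Hosts named with every value are GAS5, ZFAS1, EPB41L4A-AS1, MIR17HG, DANCR, the 6 SNHG genes with the highest mean FPKM, and every host called in any of the 3 comparisons by either fit; from each list at most 4 genes of lowest p are named, and FBL, DKC1, LARP1 and the hosts outside this rule were named after their values were seen. A few items that these rules would name are not reported here.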

Additional observations from a re-analysis of the deposited data

Results flagged for a closer look

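A set of 3 host genes differed between the hairpins by the test of the difference itself (edgeR, sh78 against sh76): SNHG19 by a log2 fold change of −0.72, SNHG4 by −0.68 and SNHG16 by 0.26. In each, every sh78 library lay beyond every sh76 library, and all 3 same-numbered pairs had the same sign.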

How the results depend on the processing

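SNHG4 and SNHG19 were called for sh76 and between hairpins under every alternative run. With replicate number as a block, host genes called were 9, 3 and 9 for sh76, sh78 and sh78 against sh76, where the fit without it gave 3, 1 and 3, and genes called were 3467, 3387 and 3117 in place of 610, 750 and 629. Without a low-count filter, genes called were 1149, 1212 and 1125, and host genes called for sh76 were 5. For sh78, DESeq2, a minimum count of 30, and limma on FPKM with either pseudocount gave 2 host genes each, and fitting only the 2 groups gave 0. Leaving out each library in turn gave 2 to 4, 0 to 1 and 2 to 4 host genes, and 237 to 655, 418 to 824 and 274 to 780 genes. The gene count fell by over 1.5 times for sh76 without scramble replicate 2 (313) or 3 (334) or sh76 replicate 2 (237) or 3 (345), and for sh78 without scramble replicate 2 (418) or 3 (453) or sh78 replicate 2 (469) or 3 (453). Between hairpins it did so without any sh76 library (419, 274 and 368 for replicates 1 to 3) or any sh78 library (344, 375 and 351). No named host reversed direction while called; over the other values, 811 kept their side of the threshold, 29 gained a call and 27 lost one. Hosts near 1 CPM rest on few counts, and overlapping genes cannot be separated without strand.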
